A study of Mus musculus with 4 samples.

Results

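The tumor necrosis factor (TNF) ligand and receptor superfamily was followed in whole mouse kidney with and without autosomal dominant polycystic kidney disease (ADPKD). Its members were taken by gene symbol, as every listed gene named Tnfsf or Tnfrsf with a number, together with Tnf, Lta, Ltb, Ltbr, Cd40, Cd40lg, Cd27, Fas, Fasl, Eda, Edar, Eda2r and Ngfr. Cd70, which the rule also names, was not analysed here. The rule found 45 of the 32176 rows, namely 17 ligands, 27 receptors and 1 antisense RNA, Tnfsf13os. It used no measured value, but the members were chosen with earlier results of these data known. RNA of whole kidney was sequenced in 4 libraries, 2 labelled WT (genotype wildtype) and 2 labelled ADPKD (genotype Pkd1fl/fl; Cre/Esr1+, that is, a floxed Pkd1 gene with a tamoxifen-inducible Cre recombinase). An injection of tamoxifen (10 mg/kg, postnatal day 10), which makes this model early-onset, is written on the labels of every sample, WT included. The promoter that drives the Cre, the age at collection and whether each library is a separate animal are not given in the sources used here. The p-values therefore measure the spread between these samples, which may be technical.

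Ligands of this family are mostly trimeric membrane proteins, some of which are cut from the cell surface, and their receptors carry cysteine-rich repeats outside the cell. Receptors with a death domain can start apoptosis or necroptosis as well as NF-kB signaling, receptors without it bind TRAF adaptors and mainly turn on NF-kB and stress kinases, and decoy receptors bind a ligand without passing on a signal. In the kidney, TNF and TWEAK act on tubule epithelium during injury, and TNF has been found in the fluid of human cysts.

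Values are FPKM (reads per exon length and per read assigned in that library), so levels of different genes are compared per length. The libraries held between 18001308 and 19955120 assigned reads, at which 1 read on a gene of 1 kb is worth between 0.0501 and 0.0556 FPKM. Defining kidney markers were present in every library, with 8 proximal tubule genes summing to 1864 to 1968 FPKM in WT and 677 to 846 FPKM in ADPKD. Pkd1 stood at 1.97 and 2.12 FPKM in WT, against 2.48 and 2.08 FPKM in ADPKD, a value over all exons that does not measure the deletion. ADPKD replicate 2 was the only library with Xist (29.6 FPKM, against 0.0121 to 0.0217 in the other 3) and had 0.0482 FPKM of the Y-linked Ddx3y, against 8.46 to 15.1 FPKM, so counts of calls are also given without it.

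Kidneys of both groups expressed a few receptors at high levels and many members close to the floor. In both WT libraries 8 of the 45 members reached 1 FPKM, against 17 in both ADPKD libraries. Of the 45 members 10 were listed at 0 in at least 1 library, where 3 reads are the limit that a count of 0 allows, and 18 had fewer than 100 reads over the 4 libraries together. The 27 receptors summed to 192 and 201 FPKM in WT and to 284 and 324 FPKM in ADPKD. The 17 ligands summed to 20.2 and 19.9 FPKM in WT and to 32.5 and 65.3 FPKM in ADPKD. Both sums were higher in each ADPKD library than in either WT library, and the ligand sum differed more between the ADPKD libraries than between the WT libraries. Whole tissue was sequenced, so more cells of a type and more RNA per cell cannot be told apart.

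**Figure D1:**
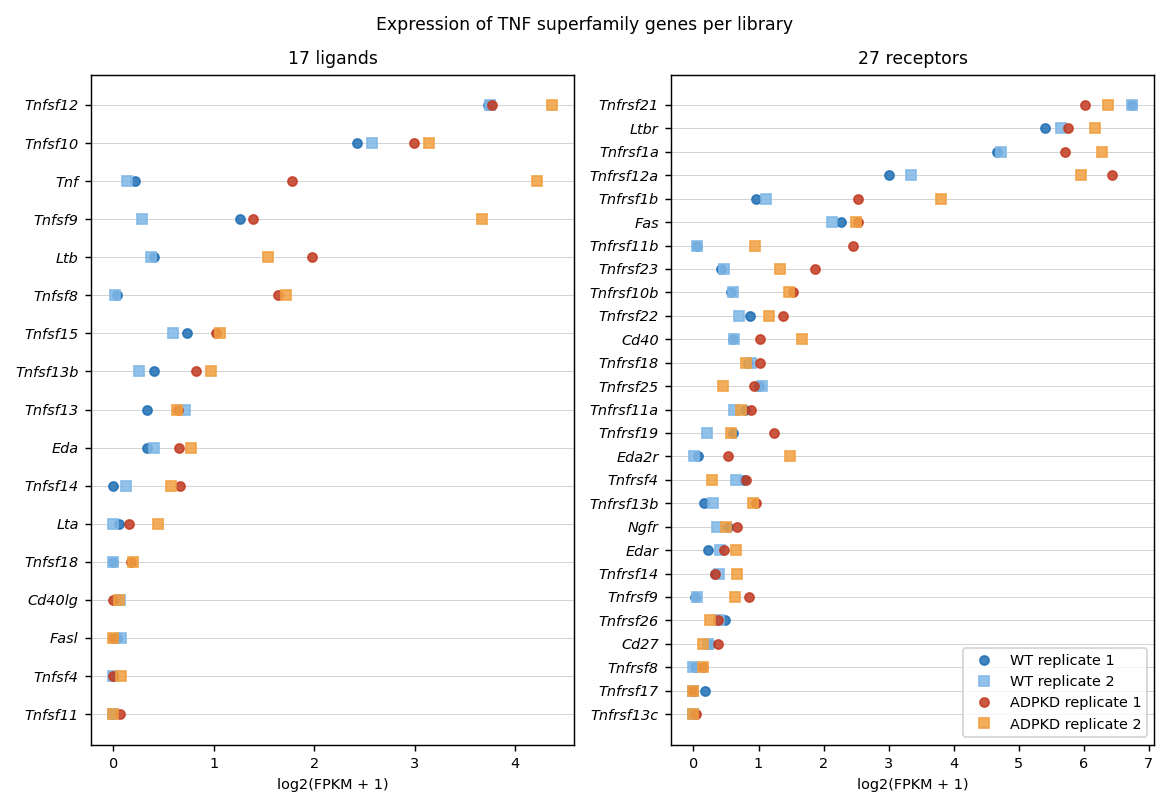
Level of each ligand (left) and receptor (right) in the 4 libraries, as log2(FPKM + 1), ordered by mean level, with 1 point per library. Tnfsf12 and Tnfrsf21 had the highest mean among ligands and receptors, and Tnf and Tnfsf8 lay near 0 in both WT libraries and apart from them in both ADPKD libraries.

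The make-up of the receptor sum differed between the groups. Tnfrsf21, which encodes death receptor DR6, made up 55.5% and 52.6% of the summed receptor FPKM in WT replicates 1 and 2, and 22.6% and 25.3% in ADPKD replicates 1 and 2. Tnfrsf12a, the receptor gene of TWEAK, made up 3.65% and 4.55% in WT and 30.1% and 18.9% in ADPKD. It was the most abundant receptor transcript in ADPKD replicate 1 and ranked 4 of 27 in the other 3 libraries. Among ligands, Tnfsf12, which encodes TWEAK, ranked highest in every library, with 60.7% and 62.5% of the ligand sum in WT and 38.7% and 30.1% in ADPKD. These shares are ratios within a library and show unequal change among the genes, not which of them changed.

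**Figure D2:**
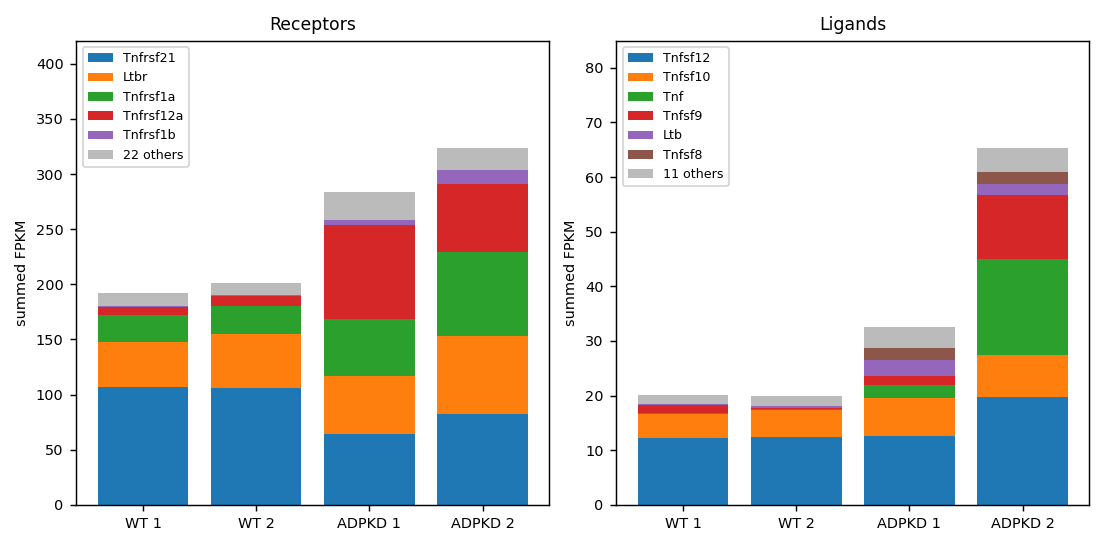
Summed FPKM of the 27 receptors (left) and 17 ligands (right) in each library, stacked by gene, with the remaining genes in grey. The receptor sum was 192 and 201 FPKM in WT and 284 and 324 FPKM in ADPKD, with Tnfrsf21 the largest layer in WT.

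Whether members differed between ADPKD and WT was tested with limma on log2(FPKM + 1) across all 17001 genes with a mean of at least 0.5 FPKM, and a gene was called at a Benjamini-Hochberg adjusted p below 0.05. Of the 45 members 27 passed the filter, 6 were called higher and 0 lower. Across all genes tested 9.43% were called higher and 4.78% lower. The 6 genes that rose were the receptors Tnfrsf12a, Tnfrsf1a, Tnfrsf1b and Tnfrsf10b and the ligands Ltb and Tnfsf8. At an unadjusted p under 0.05 by limma there were 12 members higher and 1 lower, the receptor gene Tnfrsf21. Of all 17001 genes tested 5878 were under this p, in either direction. Voom on reads recovered from the FPKM also called 0 members lower, with 9 higher where 12.3% of all genes were higher. Of the 27 members tested 10 passed the filter through their ADPKD mean alone, among them Tnfsf8 and Ltb. Most of these could hardly have passed without a difference, though Tnfsf13 did, with means of 0.455 FPKM in WT and 0.555 FPKM in ADPKD. Of the 16 members that passed in both groups 4 were called higher. Over all 45 members, 28 had both ADPKD libraries above both WT libraries, against 30.9% of all genes listed, and 5 had both below, against 18.7%. The median log2 fold change over all genes tested was 0.18. It became -0.0125 once the libraries were quantile-normalized and 0.00608 when they were scaled by median of ratios, so small differences depend on the scaling. Quantile normalization left 4 members higher (5.88% of all genes) and median-of-ratios scaling 3 (4.36%). All genes called split into 1604 higher and 813 lower as deposited, 999 and 1102 by quantile normalization, and 740 and 878 by median of ratios. A pseudocount of 0.1 called 8 members higher (9.95% of all genes), the 6 with Tnf and Tnfrsf23.

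The calls rested on all 4 libraries. Without ADPKD replicate 1 limma called 4 members higher, 3 of the 6 named above (Tnfrsf12a, Tnfrsf1b and Tnfsf8) and Tnf, where 2.6% of all genes tested were higher. Without WT replicate 1, and likewise without WT replicate 2, the only member called was Tnfrsf12a, with 1.9% and 1.07% of all genes higher in these fits. Without ADPKD replicate 2 limma called no gene at all. The log2 fold changes of the 6 genes were then between 0.95 (Tnfrsf10b) and 3.26 (Tnfrsf12a). With no filter on low values 0 members were called where 0.00311% of all genes were higher. At an unadjusted p under 0.05 by limma 18 members were then higher and 1 lower, against 7251 of all 32151 genes in either direction. The log2 fold changes of the 6 genes were above 0 in every alternative in which they were tested.

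**Figure D3:**
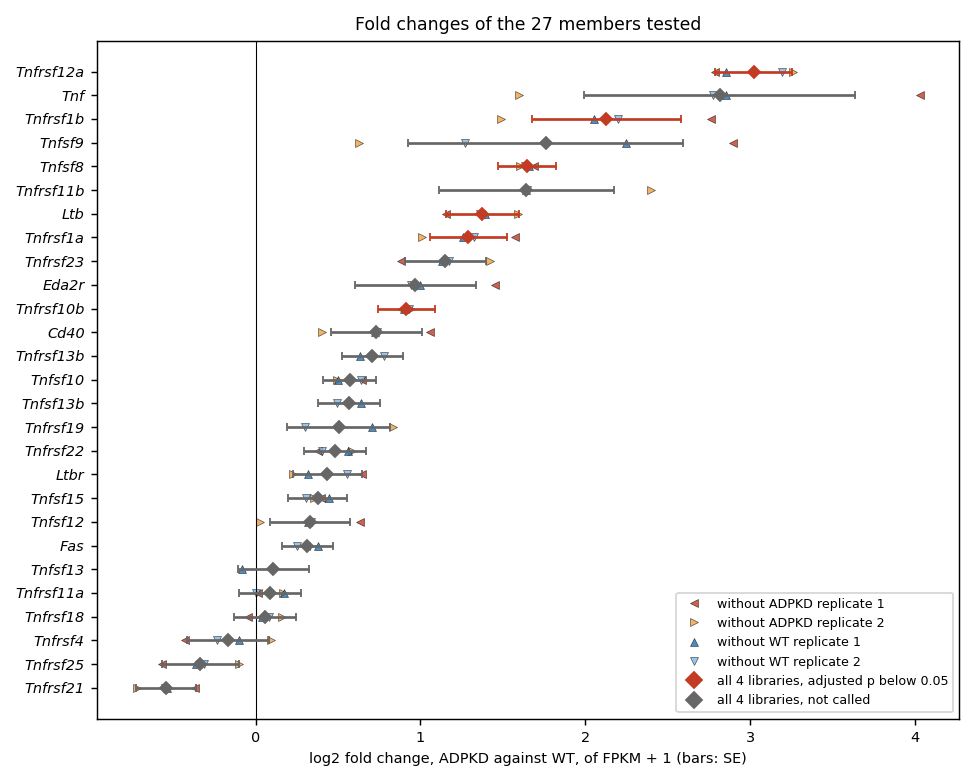
Log2 fold change of FPKM + 1, ADPKD against WT, for the 27 members tested; diamonds are the values from all 4 libraries with SE bars, red where called, and triangles are values with 1 library left out. Tnfrsf12a lay between 2.79 and 3.26 with any library left out, while Tnf ranged from 1.599 to 4.03.

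TWEAK binds the small receptor Fn14, encoded by Tnfrsf12a, which signals through TRAF adaptors and is known to be induced in injured epithelium. Tnfrsf12a (chromosome 17, 23675445 to 23677468) had 7.01 and 9.14 FPKM in WT replicates 1 and 2, against 85.2 and 61.3 FPKM in the ADPKD replicates. Both ADPKD libraries were far above both WT libraries, and the means differed by 9.07-fold. The log2 fold change came to 3.02 (SE 0.23, adjusted p = 0.0164 by limma), the smallest p among the members. The adjusted p was 0.0457 without ADPKD replicate 1, and 0.0281 or 0.0327 when WT replicate 1 or 2 was left out. The call was lost without ADPKD replicate 2, with a log2 fold change of 3.26 (adjusted p = 0.0662), and with no filter (0.0667). Reads behind these values numbered 567 in WT and 5419 in ADPKD over both libraries of a group.

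The 250 bases before the start of Tnfrsf12a are shown because it had the smallest p of the family. They come from RefSeq on GRCm38.p6 (chr17:23677450-23677699, minus strand). Capitals mark GGG, any 5 bases and CC, a loose form of the NF-kB motif searched on both strands, where matches that overlap run together.
Tnfrsf12a: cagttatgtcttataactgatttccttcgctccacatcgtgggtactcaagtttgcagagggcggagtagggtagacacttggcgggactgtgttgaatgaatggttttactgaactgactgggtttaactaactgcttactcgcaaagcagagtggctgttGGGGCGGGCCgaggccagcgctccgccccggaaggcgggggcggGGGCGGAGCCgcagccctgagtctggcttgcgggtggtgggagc
Among all 32851 RefSeq promoter windows of 300 bases, 50.8% hold these letters and 7.81% hold TGANTCA, the AP-1 motif. Of 39 windows of 35 members matched by symbol, 26 windows (66.7%) hold the NF-kB-like letters and 7 (17.9%) the AP-1 letters. The NF-kB-like letters are thus common in promoters at large, and a match is a description of the letters only.

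The ligand gene of this receptor was not called. Tnfsf12 (chromosome 11, 69686250 to 69695849) stood at 12.2 and 12.4 FPKM in WT, against 12.6 and 19.6 FPKM in ADPKD replicates 1 and 2. The first ADPKD library lay next to the WT values and the other above them, and the log2 fold change of 0.33 (SE 0.24, adjusted p = 0.393) missed the threshold; leaving out ADPKD replicate 1 gave 0.63 and leaving out ADPKD replicate 2 gave 0.0270. Of the exon length of Tnfsf12, 48.3% lies under exons of Tnfsfm13, a readthrough gene on the same strand, and no option to count reads in such overlaps was set, so its level is uncertain. Within a library, the level of Tnfrsf12a was 0.573 and 0.736 times that of Tnfsf12 in WT and 6.77 and 3.12 times in ADPKD.

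TNF itself signals through TNFR1, encoded by Tnfrsf1a, which carries a death domain and is found on most cells, and through TNFR2, encoded by Tnfrsf1b, which lacks it and is best known on leukocytes and endothelium. Tnfrsf1a (chromosome 6, 125349362 to 125362484) stood at 24.4 and 25.6 FPKM in WT, against 51.3 and 76.5 FPKM in ADPKD. The WT libraries lay close together and both ADPKD libraries were above them, with means 2.55-fold apart. The log2 fold change was 1.29 (SE 0.23, adjusted p = 0.0363 by limma), and the call was lost with median-of-ratios scaling (log2 fold change 1.07, adjusted p = 0.112). It was also lost without ADPKD replicate 1 (0.0530), ADPKD replicate 2 (0.0963), WT replicate 1 (0.102) and WT replicate 2 (0.110), with log2 fold changes between 1.01 and 1.58.

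Tnfrsf1b (chromosome 4, 145213463 to 145246870) stood at 0.954 and 1.16 FPKM in WT, against 4.78 and 13.0 FPKM in ADPKD replicates 1 and 2. Both ADPKD libraries were above WT, and the second was 2.71 times the first. The log2 difference came to 2.13 (SE 0.45, adjusted p = 0.0487 by limma), just inside the threshold. Quantile normalization (adjusted p = 0.0889), median-of-ratios scaling (0.0957), a fit without intensity trend (0.0516) and the robust prior (0.0537) lost the call. So did leaving out ADPKD replicate 2 (log2 fold change 1.49, adjusted p = 0.0780), WT replicate 1 (0.126) or WT replicate 2 (0.131), and testing with no filter (0.126). Within a library, Tnfrsf1a was 25.6 and 21.99 times as abundant as Tnfrsf1b in WT, and 10.7 and 5.89 times in ADPKD.

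Tnf (chromosome 17, 35199381 to 35202007) stood at 0.166 and 0.102 FPKM in WT, which is 5 and 3 reads, against 2.43 and 17.6 FPKM in ADPKD replicates 1 and 2, which is 74 and 574 reads. Both ADPKD libraries were above WT but 7.22-fold apart from each other. The log2 fold change of 2.82 (SE 0.82, adjusted p = 0.0908 by limma) missed the threshold. It was 4.03 without ADPKD replicate 1 and then passed (adjusted p = 0.0352), and 1.599 without ADPKD replicate 2 (0.0721). It also passed with a pseudocount of 0.1 (adjusted p = 0.0424) but not with voom on recovered reads (0.130).

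Promoter letters of the 3 genes of the TNF axis are shown beside these values, as the 250 bases before the start on GRCm38.p6 from RefSeq. They are chr6:125349473-125349722 (plus strand) for Tnfrsf1a, chr4:145246871-145247120 (minus strand) for Tnfrsf1b and chr17:35202008-35202257 (minus strand) for Tnf. The starts are those of RefSeq and can differ from the gene positions given in this text, which come from the deposited annotation. The Tnfrsf1a stretch lies inside the gene so positioned, and the stretches of Tnfrsf12a and Ltb overlap the edge of theirs. Capitals mark the same NF-kB-like letters on either strand.
Tnfrsf1a: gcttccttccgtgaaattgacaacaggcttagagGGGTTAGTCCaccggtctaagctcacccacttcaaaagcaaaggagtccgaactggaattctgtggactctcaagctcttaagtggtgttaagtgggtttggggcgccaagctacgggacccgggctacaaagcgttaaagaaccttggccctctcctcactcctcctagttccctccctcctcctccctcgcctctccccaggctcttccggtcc
Tnfrsf1b: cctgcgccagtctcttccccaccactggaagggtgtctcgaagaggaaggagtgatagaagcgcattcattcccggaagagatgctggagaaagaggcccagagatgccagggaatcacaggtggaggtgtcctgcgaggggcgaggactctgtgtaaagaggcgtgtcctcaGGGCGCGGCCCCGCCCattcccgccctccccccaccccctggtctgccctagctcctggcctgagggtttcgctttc
Tnf: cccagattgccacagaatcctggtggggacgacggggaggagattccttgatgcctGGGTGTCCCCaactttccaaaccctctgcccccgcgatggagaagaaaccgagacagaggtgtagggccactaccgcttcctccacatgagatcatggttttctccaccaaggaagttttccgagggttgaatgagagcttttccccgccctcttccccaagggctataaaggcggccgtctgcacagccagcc
Matches numbered 1 in Tnfrsf1a, 3 that overlap in Tnfrsf1b and 1 in Tnf, and TGANTCA was found in 0 of these 3 stretches.

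Lymphotoxin beta, encoded by Ltb, joins lymphotoxin alpha in a membrane trimer that binds the receptor LTBR. Ltb (chromosome 17, 35194439 to 35196320) stood at 0.323 and 0.293 FPKM in WT, against 2.95 and 1.92 FPKM in ADPKD, from 17 reads in WT and 141 in ADPKD. Both ADPKD libraries were above WT, and replicate 1 was the higher of them. The log2 fold change was 1.38 (SE 0.22, adjusted p = 0.0320 by limma), and the call held under quantile normalization (0.0333) and median-of-ratios scaling (0.0357). It was lost without ADPKD replicate 1 (0.0644), ADPKD replicate 2 (0.0721), WT replicate 1 (0.110) and WT replicate 2 (0.129), with log2 fold changes between 1.16 and 1.59, and with no filter (0.0904). The promoter stretch of Ltb (chr17:35194257-35194506, plus strand), shown because Ltb lies beside Tnf, held 4 matches, of which 3 overlap.
Ltb: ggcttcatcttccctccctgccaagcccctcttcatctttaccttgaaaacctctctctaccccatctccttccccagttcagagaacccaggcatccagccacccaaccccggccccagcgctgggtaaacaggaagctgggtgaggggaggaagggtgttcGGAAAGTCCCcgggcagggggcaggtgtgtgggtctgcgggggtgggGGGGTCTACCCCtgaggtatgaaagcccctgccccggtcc

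Lta, which lies in the same stretch of 10913 bases as Ltb and Tnf, stayed near the floor, with 1 read in the WT libraries together and 3 and 10 reads in ADPKD replicates 1 and 2. Ltbr was the second most abundant receptor transcript in WT, at 41.4 and 49.0 FPKM, and stood at 52.8 and 71.1 FPKM in ADPKD. Its log2 fold change of 0.44 (SE 0.21, adjusted p = 0.219 by limma) missed the threshold and was 0.21 with median-of-ratios scaling. Leaving out ADPKD replicate 1 gave 0.65, and leaving out ADPKD replicate 2 gave 0.23. Tnfsf14, which encodes LIGHT, another ligand of LTBR, had 3 reads in WT and 38 in ADPKD over both libraries of a group. Its other receptor gene, Tnfrsf14, stood at 0.265 and 0.309 FPKM in WT, against 0.262 and 0.592 FPKM in ADPKD, where the groups overlap.

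Several members serve as costimulatory signals between antigen-presenting cells and lymphocytes. Tnfsf8, which encodes the ligand of CD30 (chromosome 4, 63831308 to 63861347), stood at 0.0286 and 0.0146 FPKM in WT, which is 2 reads and 1 read, against 2.11 and 2.29 FPKM in ADPKD, which is 149 and 174 reads. The ADPKD libraries agreed closely, and both were far above WT. Pooled over the libraries of a group, the reads differed by a factor of 101.7, with an exact 95% interval of 34.5 to 496 that covers counting error only. On the log2(FPKM + 1) scale the log2 fold change was 1.65 (SE 0.18, adjusted p = 0.0206 by limma) and the call held under both scalings. It was 0.0492 without ADPKD replicate 1, and lost without ADPKD replicate 2 (0.0715), WT replicate 1 (0.0672) and WT replicate 2 (0.0797), with log2 fold changes between 1.61 and 1.69, and with no filter (0.0667). The gene of its receptor, Tnfrsf8, had 1 read in WT and 14 in ADPKD, with at most 0.109 FPKM in any library.

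Tnfsf9, which encodes the 4-1BB ligand, stood at 1.39 and 0.215 FPKM in WT, against 1.63 and 11.7 FPKM in ADPKD replicates 1 and 2. The groups did not overlap, but ADPKD replicate 1 lay close to WT replicate 1, and the log2 fold change of 1.76 (SE 0.84, adjusted p = 0.216 by limma) missed the threshold. Leaving out ADPKD replicate 1 gave 2.90 and leaving out ADPKD replicate 2 gave 0.62, and 14.9% of the exon length lies under an antisense gene. The receptor gene Tnfrsf9 had 3 reads in WT and 71 in ADPKD, a ratio of 22.4 with an exact 95% interval of 7.35 to 111 for counting error. Cd40, a receptor of antigen-presenting cells that epithelium can also express, stood at 0.527 and 0.538 FPKM in WT, against 1.03 and 2.19 FPKM in ADPKD (log2 fold change 0.73, SE 0.28, adjusted p = 0.145). With ADPKD replicate 1 left out the Cd40 value was 1.06, and with ADPKD replicate 2 left out 0.40.

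Other costimulatory members, and Fasl, the ligand gene of the death receptor Fas, had few reads and no call. Cd40lg, Fasl and Tnfsf4 had at most 3 reads over the 4 libraries together. Cd27 had 15 reads in WT and 18 in ADPKD, and Tnfsf18 had 0 and 11. Against a floor of 3 reads over the WT group that is 3.46-fold, with the counting error of the 11 reads left out. Tnfrsf4 and Tnfrsf18, the receptor genes of OX40 ligand and GITR ligand, stood between 0.220 and 1.03 FPKM in every library, their groups overlapped, and their log2 fold changes of -0.17 and 0.0580 missed the threshold (limma adjusted p = 0.673 and 0.851). Of 9 markers of T and NK cells, the usual carriers of many of these receptors, the sum was 4.59 and 3.28 FPKM in WT and 2.63 and 3.11 FPKM in ADPKD. Of the 9, 5 had both ADPKD libraries below both WT libraries, against 18.7% of all genes listed, and 1 had both above, against 30.9%. The latter was Cd4, at 0.310 and 0.386 FPKM in WT and 0.748 and 1.64 FPKM in ADPKD. Ncr1 was at 0 in both ADPKD libraries, but near the floor in WT too (0.106 and 0.0721 FPKM).

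Receptors of TRAIL can start apoptosis or act as decoys. Tnfrsf10b, the death receptor for TRAIL in mice (chromosome 14, 69767472 to 69784411), stood at 0.489 and 0.520 FPKM in WT, against 1.90 and 1.77 FPKM in ADPKD. Replicates agreed closely in both groups, which did not overlap, and the means were 3.64-fold apart. On the log2 scale the difference was 0.91 (SE 0.17, adjusted p = 0.0392 by limma). It was no longer called with no filter (0.0993), by median-of-ratios scaling (0.0507) or by quantile normalization (0.0520), or without ADPKD replicate 1 (0.0855), ADPKD replicate 2 (0.0973), WT replicate 1 (0.182) or WT replicate 2 (0.190). Log2 fold changes without a library were between 0.88 and 0.95.

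The mouse decoy receptors of TRAIL are encoded by Tnfrsf22 and Tnfrsf23, neighbors of Tnfrsf26 on chromosome 7. Tnfrsf23 stood at 0.343 and 0.379 FPKM in WT, against 2.65 and 1.51 FPKM in ADPKD, with both ADPKD libraries above WT. It lay just outside the threshold (log2 fold change 1.15, SE 0.25, adjusted p = 0.05002 by limma). A pseudocount of 0.1 (0.0405), the robust prior (0.0475), no intensity trend (0.0481) and voom on recovered reads (0.0324) called it. Quantile normalization (0.0512), median-of-ratios scaling (0.0529), a replicate block (0.0625) and no filter (0.124) did not. Its log2 fold change was between 0.88 and 1.42 with 1 library left out. Tnfrsf22 stood at 0.825 and 0.632 FPKM in WT, against 1.58 and 1.25 FPKM in ADPKD (log2 fold change 0.48, SE 0.19, adjusted p = 0.158). Tnfrsf26 had 0.406 and 0.311 FPKM in WT, against 0.301 and 0.187 FPKM in ADPKD, under the filter. Since multiple alignments were included for these 3 closely related neighbors, how their reads divide is uncertain.

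Tnfrsf11b encodes osteoprotegerin, a secreted decoy for RANKL and TRAIL. With 2 reads in each WT library it stood at 0.0386 and 0.0394 FPKM, against 4.47 and 0.925 FPKM in ADPKD replicates 1 and 2, from 234 and 52 reads. Both ADPKD libraries were above WT, with replicate 1 well above replicate 2, the reverse of the order seen for Tnf. The log2 fold change of 1.64 (SE 0.53, adjusted p = 0.108 by limma) missed the threshold, and was 2.40 without ADPKD replicate 2; without ADPKD replicate 1 the gene fell under the filter. Tnfsf10, which encodes TRAIL, stood at 4.38 and 4.95 FPKM in WT, against 6.98 and 7.84 FPKM in ADPKD (log2 fold change 0.57, SE 0.16, adjusted p = 0.0847), and was 0.31 after quantile normalization. RANKL itself, encoded by Tnfsf11, had 2 reads over the 4 libraries, and its receptor gene Tnfrsf11a stood at 0.736 and 0.548 FPKM in WT, against 0.837 and 0.653 FPKM in ADPKD.

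Other receptors with a death domain gave no call. Tnfrsf21, the most abundant receptor transcript in WT (chromosome 17, 43016555 to 43089189), stood at 106.5 and 105.7 FPKM there, against 64.1 and 82.0 FPKM in ADPKD. Both ADPKD libraries were below both WT libraries, which lay close together. The log2 fold change of -0.54 (SE 0.18, adjusted p = 0.114 by limma) missed the threshold, and was -0.77 with median-of-ratios scaling (0.134). Fas stood at 3.80 and 3.39 FPKM in WT, against 4.75 and 4.67 FPKM in ADPKD, a log2 fold change of 0.31 (SE 0.16, adjusted p = 0.232) that was 0.0393 after quantile normalization. Tnfrsf25, or DR3, stood at 1.003 and 1.07 FPKM in WT, against 0.899 and 0.374 FPKM in ADPKD, and its ligand gene Tnfsf15 at 0.666 and 0.515 FPKM in WT, against 1.03 and 1.09 FPKM in ADPKD. Their adjusted p were 0.367 and 0.218, and the log2 fold change of Tnfrsf25 was -0.34, or -0.10 with ADPKD replicate 2 left out.

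Members tied to B cells and to skin appendages were all low. Tnfsf13b, which encodes the B cell survival factor BAFF, stood at 0.325 and 0.194 FPKM in WT, against 0.769 and 0.963 FPKM in ADPKD, and its receptor gene Tnfrsf13b, or TACI, at 0.115 and 0.235 FPKM in WT, against 0.950 and 0.884 FPKM in ADPKD. In both genes the groups did not overlap, but neither passed the limma test (adjusted p = 0.117 and 0.0736), while voom on recovered reads called both (0.0460 and 0.0424). Neither passed the filter with either ADPKD library left out. The other BAFF receptor genes, Tnfrsf13c and Tnfrsf17, had 1 read and 2 reads over the 4 libraries. Tnfsf13, which encodes APRIL, has 60.0% of its exon length under Tnfsf13os and Tnfsfm13, so its 0.266 to 0.645 FPKM, with overlapping groups, are uncertain, and so are the 9 and 23 reads of the antisense Tnfsf13os in WT and ADPKD.

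Eda2r, a receptor of ectodysplasin that p53 induces, stood at 0.0462 and 0.00943 FPKM in WT (6 reads in all), against 0.439 and 1.81 FPKM in the ADPKD replicates. Its log2 fold change of 0.97 (SE 0.37, adjusted p = 0.146 by limma) missed the threshold. It was 1.45 with ADPKD replicate 1 left out, and with ADPKD replicate 2 left out Eda2r did not pass the filter. Eda, Edar and Ngfr, the genes of ectodysplasin, its main receptor and the neurotrophin receptor p75, stood under the filter, between 0.165 and 0.705 FPKM. Eda and Edar were higher in both ADPKD libraries than in both WT libraries, and Ngfr overlapped. Tnfrsf19, or TROY, stood at 0.528 and 0.152 FPKM in WT, against 1.36 and 0.497 FPKM in ADPKD, with overlapping groups (adjusted p = 0.318). Its log2 fold change was 0.50, and 0.83 with ADPKD replicate 2 left out.

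Members differed between the ADPKD libraries in both directions. These libraries also differed in Xist and Ddx3y, as given above, and the part of that difference was not tested. Of the 27 members tested 9 were over 2-fold apart between ADPKD replicates, 5 higher in replicate 2 (Tnf, Tnfsf9, Eda2r, Tnfrsf1b and Cd40) and 4 higher in replicate 1 (Tnfrsf11b, Tnfrsf4, Tnfrsf19 and Tnfrsf25). Between the WT replicates 5 were. Across tested genes with no value of 0 the share was 12.7% in ADPKD and 9.49% in WT. In the same libraries, 9 macrophage markers summed to 50.4 and 90.4 FPKM in WT and to 351 and 1001 FPKM in ADPKD replicates 1 and 2, and 7 of them were called higher. The sum of 6 neutrophil markers was 0.800 and 1.40 FPKM in WT, where Ly6g and Elane were at 0 in both libraries, and 41.8 and 388 FPKM in ADPKD, where Elane was at 0 in replicate 2. Fibroblast and pericyte markers, 6 genes, summed to 71.3 and 66.9 FPKM in WT and to 356 and 279 FPKM in ADPKD. Endothelial markers, 6 genes of which Tek and Egfl7 fell, summed to 54.9 and 55.8 FPKM in WT and to 26.8 and 34.4 FPKM in ADPKD. Thick ascending limb markers, 5 genes of which Cldn10 and Slc12a1 fell, summed to 974 and 1279 FPKM in WT and to 593 and 360.3 FPKM in ADPKD. The marker sums of macrophages and neutrophils were higher in ADPKD replicate 2, and that of fibroblasts in replicate 1. Single markers did not all follow these sums. Col1a1, Col3a1 and Acta2 were higher in replicate 1, while Pdgfra (3.55 and 6.33 FPKM in ADPKD replicates 1 and 2), Pdgfrb and Dcn were higher in replicate 2. Most of the neutrophil sum in replicate 2 came from S100a8 (133.7 FPKM) and S100a9 (250.1 FPKM), and Cxcr2 and Elane were not higher there. The part of these cells in the values of the members was not tested.

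**Figure D4:**
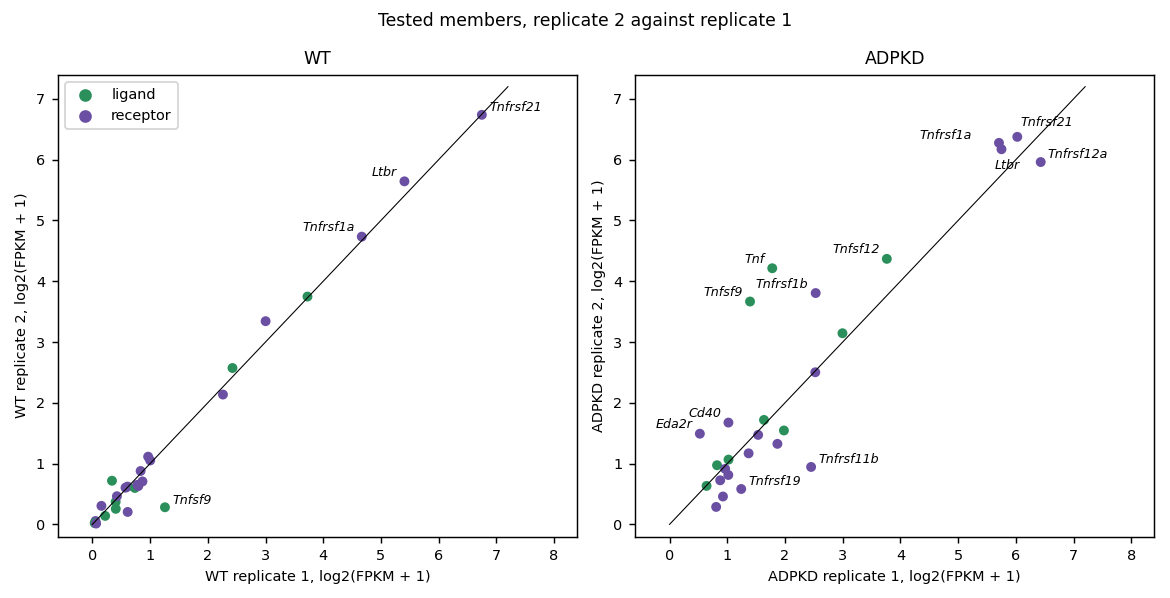
Tested members in replicate 2 against replicate 1 of WT (left) and ADPKD (right), as log2(FPKM + 1), ligands in green and receptors in purple, with the line of equal values. In ADPKD, Tnf and Tnfsf9 lie far above the line and Tnfrsf11b below it.

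Many genes of the family lie close together in the genome, and called genes lay beside uncalled ones. Of the 45 members 22 fell into 9 clusters whose neighbors are within 100 kb on GRCm38. In the cluster of Cd27, Ltbr and Tnfrsf1a on chromosome 6 (125232622 to 125362484), Tnfrsf1a was called, Ltbr was not and Cd27 lay under the filter. On chromosome 4 (63727084 to 63861347) Tnfsf8 was called beside Tnfsf15, and Tnfrsf1b (145213463 to 145315164) beside Tnfrsf8, which stayed under the filter. A difference between such neighbors was not tested.

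Downstream genes were read from 7 lists of adaptors, enzymes, kinases, transcription factors and targets. These lists were chosen with earlier results of these data known, so their counts are not independent of the calls. Of 73 genes 72 were tested, 27 rose and 1 fell, against 9.43% and 4.78% of all genes, with a median log2 fold change of 0.87 against 0.18 over all genes tested. Of the 72 genes 11 passed the filter through their ADPKD mean alone, 2 of them called (Ripk3 and Cxcl2), and such genes could hardly have passed without a difference. The other 61 passed in both groups, and 25 of these rose. NF-kB subunits and inhibitors rose in 7 of 10 cases, with a median of 1.67. Bcl3, an atypical inhibitor that binds the p50 and p52 subunits, stood at 2.02 and 2.76 FPKM in WT, against 19.6 and 31.4 FPKM in ADPKD (log2 fold change 2.94, SE 0.28, adjusted p = 0.0185 by limma). Relb, a subunit of the noncanonical pathway used by LTBR, Fn14 and CD40, stood at 1.67 and 1.34 FPKM in WT, against 9.68 and 11.4 FPKM in ADPKD (adjusted p = 0.0165). The noncanonical kinase gene Map3k14, or NIK, rose by 1.20 (SE 0.17, adjusted p = 0.0280), as 1 of 2 called among 10 kinases and their partners.

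Among 12 adaptors 1 was called, Traf3, whose product holds NIK down (log2 fold change 0.83, SE 0.17, adjusted p = 0.0440 by limma; 0.0731 by quantile normalization and 0.0623 by median of ratios). Among 11 ubiquitin ligases and deubiquitinases 3 rose, and Birc3, which encodes the TRAF-bound ligase cIAP2, stood at 1.69 and 1.45 FPKM in WT, against 11.3 and 13.2 FPKM in ADPKD (log2 fold change 2.37, SE 0.17, adjusted p = 0.0164). Of 8 cell death genes the necroptosis genes Ripk3 and Mlkl rose, Ripk3 having passed the filter through ADPKD alone. Ripk3 stood at 0.403 and 0.388 FPKM in WT, against 2.75 and 2.58 FPKM in ADPKD (adjusted p = 0.0231). Of 5 genes of shedding 3 rose, among them Rhbdf2, which encodes iRhom2, a partner of the protease that releases TNF (log2 fold change 1.72, SE 0.17, adjusted p = 0.0192). Adam17, the gene of that protease, was among the 5 but was not called.

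Of 16 tested genes that TNF is known to induce 9 rose and 1 fell. Of the 16, 6 passed the filter through ADPKD alone (Sele, Ccl2, Ccl20, Cxcl2, Il6 and Mmp9), with Cxcl2 called, and 8 of the other 10 rose. Csf1, the macrophage growth factor gene, stood at 1.24 and 2.30 FPKM in WT, against 19.7 and 21.8 FPKM in ADPKD (limma adjusted p = 0.0165). Cxcl1, a neutrophil chemokine gene, stood at 0.754 and 0.415 FPKM in WT, against 21.4 and 114.8 FPKM in ADPKD (log2 fold change 5.02, SE 0.80, adjusted p = 0.0317), and the call was lost with median-of-ratios scaling (0.0542) and voom (0.0717). Sod2, the mitochondrial superoxide dismutase gene, went the other way, from 39.2 and 38.8 FPKM in WT to 18.04 and 20.8 FPKM in ADPKD (log2 fold change -0.97, SE 0.15, adjusted p = 0.0295). Of these genes 5 rose by quantile normalization and 4 by median of ratios, where 5.88% and 4.36% of all genes were called higher. Of the NF-kB list 7 and 6 rose under these scalings.

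Of the 9 genes of these lists named here by rule, Bcl3, Relb, Map3k14, Traf3, Birc3, Ripk3, Rhbdf2, Csf1 and Cxcl1, limma called 4 without ADPKD replicate 1, and 5 or 3 when WT replicate 1 or 2 was left out. With no filter, and without ADPKD replicate 2, 0 of the 9 were called, and all 9 log2 fold changes stayed above 0. Over the 7 lists together fewer genes rose in each fit with 1 library left out than with all 4 libraries. None rose without ADPKD replicate 2, where no gene at all was called. Calls over all genes were also fewer in these fits. The fall of Sod2 was not called in any of these 4 fits. Markers of macrophages and neutrophils, cells that express many of the same genes, were higher in the same ADPKD libraries by the sums given above, and their part was not tested.

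**Figure D5:**
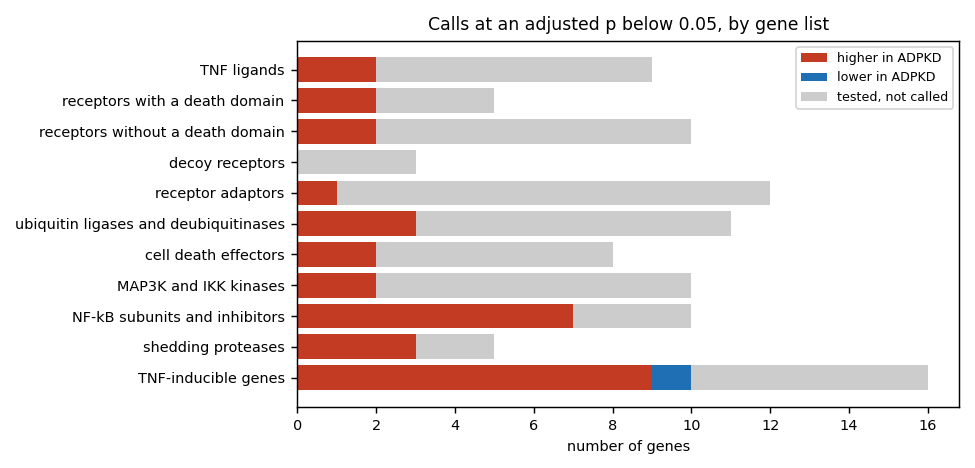
Number of genes tested in each role group of the family (upper 4 bars) and in each of the 7 downstream lists, with genes called higher in ADPKD in red, lower in blue and not called in grey. NF-kB subunits and inhibitors (7 of 10) and TNF-inducible genes (9 of 16) have more called genes than any other bar. The lists were chosen with earlier results of these data known.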

How the data were processed

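Messenger RNA of whole kidney, selected with oligo dT per the labels' protocols, was sequenced in 2 WT and 2 ADPKD libraries, grouped by sample title. The authors deposited FPKM per gene, and the values were used as deposited. The tools Bowtie2 and DESeq2 and the build mm10 are named in the submitters' processing notes. Per the file headers of the accompanying table, whose exon lengths turn the FPKM into whole reads, featureCounts 1.6.0 summed exon reads by gene name on the Ensembl GRCm38 release 98 annotation, with multiple alignments included and no strand or overlap option. Reads of overlapping, antisense and near-identical genes can therefore be lost or shared. That deposited table gave positions and exon lengths in bases (other unit); its 16 columns of per-sample values, named for 8 libraries, were not used.

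Of 32176 rows 25 had names turned into dates and were left out. FPKM times exon length gave whole reads for 100% of values (tolerance 0.01 reads). Genes with a mean of at least 0.5 FPKM were tested as log2(FPKM + 1) with limma 3.58.1 (R 4.3.3) and an intensity trend (residual df 2, prior df 2.55), with Benjamini-Hochberg adjustment over 17001 genes. An exact permutation test of 2 against 2 cannot give a two-sided p below 0.333. Floors and intervals cover counting error only. Fold changes on this scale understate low genes. Members and lists were chosen with earlier results of these data known. All members may be named, and those called, their partners, the 3 most abundant ligands and receptors and the 3 uncalled members with the largest fold changes are given in full; of each downstream list, the called gene with the smallest p and with the largest fold change, and others only within a count. The fit was tested on simulated counts with large changes, where some unchanged genes were also called. That simulation does not give its error rate in these data. Alternatives were another pseudocount, filters, scalings, priors, a replicate block, voom on recovered reads and each library left out.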

Additional observations from a re-analysis of the deposited data

How the results depend on the processing

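Members called higher numbered 6, where 9.43% of all genes were higher. They numbered 0 with no filter (0.00311% of all genes) and 2 of 7 tested with a mean of at least 5 FPKM (15.1%). Median-of-ratios scaling called 3 (4.36%), and each fit with 1 library left out called fewer than 6. Downstream genes called higher numbered 27, and 0 with no filter, 17 with median-of-ratios scaling and 0 to 18 with 1 library left out. The downstream gene called lower was not called with no filter (0) or with any library left out (0 each). With no filter limma called 1 gene of 32151 in all, and 0 without ADPKD replicate 2. The replicate block left 4 members and 24 downstream genes higher, with 7.18% of all genes higher; Tnfrsf10b (adjusted p = 0.0550), Tnfrsf1b (0.0514) and, of the downstream genes named, Traf3 (0.0584) lost their calls. The labels do not say that a number marks a shared animal, litter or batch, and deviations of WT and ADPKD replicate 1 correlated at 0.188 over 17001 genes, so no pairing was assumed. The sign changed for uncalled genes near 0: Tnfrsf18 was -0.0854 after quantile normalization, -0.0520 with median-of-ratios scaling and -0.0447 to 0.161 with 1 library left out; Tnfrsf11a was -0.0469 and -0.00711 under these scalings; Tnfsf13 was -0.0395 after quantile normalization and -0.0808 without WT replicate 1; Tnfrsf4 was -0.428 to 0.0919 with 1 library left out. Of 435 fold changes of single genes under the alternatives, 347 kept direction and side of the threshold, 72 lost and 8 gained a call. Only the 6 members called and the 9 downstream genes named by rule could lose a call. Most of the 347 were genes not called with all 4 libraries that stayed uncalled. The causes of these changes were not tested. Of the 45 members 18 had fewer than 100 reads over the 4 libraries, so little can be said of these.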
